A study of Triticum aestivum with 24 samples.

Results

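TraesCS4B01G114400 on chromosome 4B of bread wheat, annotated as anthranilate synthase alpha subunit 2, was 1 of 62 loci listed with a miRNA cleavage site. The study reports more target loci than the deposited table holds. The locus was selected on its PARE abundance, the highest of the table at 1 position with 27 tags, where the next locus, a cysteine-rich receptor-like protein kinase (TraesCS2A01G360000), had 21. All rows of its single transcript were used, 6 of 239 pairs of a miRNA and a position. The abundance is thus a description of how the locus was chosen, and no test was made on it.

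Leaves of Triticum aestivum cv Chinese Spring, all grown from seed of a single selfed plant, were taken from plants kept in control conditions (18 °C by day) or held at 37 °C for 5 days from the boot stage. Both sets were sampled when the treatment ended (day 0). The heated plants were then returned to control conditions, and both sets were sampled again on days 1 and 4. Each of the 24 degradome libraries (6 groups, 4 biological replicates each) was made from RNA pooled over 18 plants. Values are deposited once per miRNA and position for the whole series, so heat and control leaves could not be compared, and library depths are unknown.

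Anthranilate synthase turns chorismate, the end product of the shikimate pathway, into anthranilate, and so opens the branch that leads to tryptophan. The alpha subunit binds chorismate and is the subunit that tryptophan inhibits, and the beta subunit supplies ammonia from glutamine. In plants both are encoded in the nucleus and imported into the chloroplast, and tryptophan is a precursor of auxin and of many defence compounds. A plant miRNA with near-perfect pairing directs an Argonaute protein to cut the transcript, as a rule opposite the bond between bases 10 and 11 of the miRNA. Parallel analysis of RNA ends (PARE) reads the 5′ end that such a cut leaves, along with 5′ ends from any other decay.

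The 5 miRNAs listed at the locus are shown because their sequences overlap and fall into few groups. They are written 5′ to 3′ with T for U, and the capitals mark the seed (bases 2 to 8).

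miR1137-310-5p: aAATAGATgacccaactttgtact

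miR1137-491-5p: tCCAAAATagatgactcaact

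miR1137-121-5p: tCCGTTCCaaaatagatgact

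miR1439-2-5p: tCCGTTCCaaaatagatgacc

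miR1137-385-5p: tCCGTTCCaaaatagatgac

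Their binding sites joined without a gap or a conflicting base into a stretch of 33 nt, positions 24 to 56 of the coding sequence of TraesCS4B01G114400.1 (IWGSC RefSeq v1.0, sense strand). The 4 listed cleavage positions, 36, 38, 40 and 45, are in capitals.

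target stretch: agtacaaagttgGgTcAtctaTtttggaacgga

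The 5 miRNAs carried 3 different seeds. miR1137-121-5p, miR1137-385-5p and miR1439-2-5p shared a seed and in fact their first 20 bases. miR1137-385-5p ends there, and the others differ only in their last base. These 3 names, from 2 families, therefore describe essentially a single sequence at position 45 and are not separate evidence of a cut. The seeds of miR1137-310-5p and miR1137-491-5p were each their own, although both miRNAs pair with bases inside the same stretch.

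**Figure D1:**
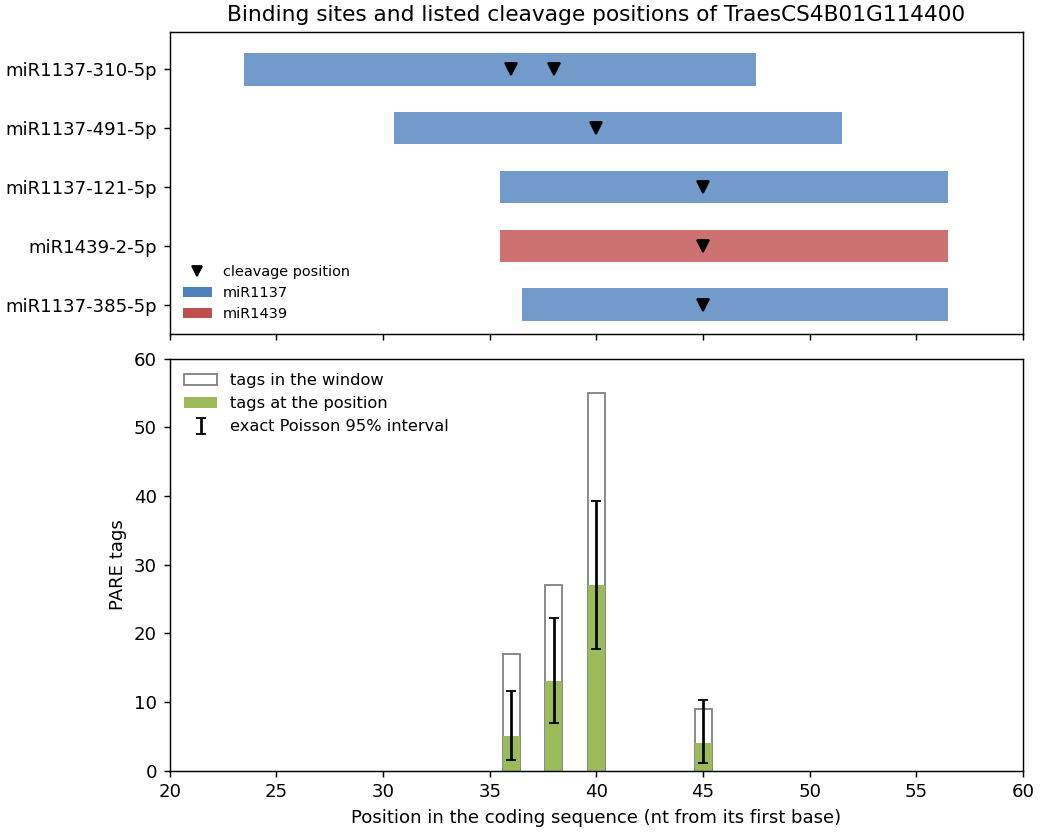
Top, binding sites of the 5 miRNAs (bars, coloured by family) and listed cleavage positions (triangles) against the position in the coding sequence in nt. Bottom, PARE tags at each position (filled bars, with exact Poisson 95% intervals) and in the window around it (open bars). The positions lie between 36 and 45, with 27 of 55 tags at position 40 and 4 of 9 at position 45.

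All 4 sites lay within 10 nt, from position 36 to position 45. Their tag counts are given here as a description. Position 40 had 27 tags (exact Poisson 95% interval 17.8 to 39.3) under miR1137-491-5p, with 28 further tags elsewhere in its window (named in the table as 10 nt). Position 38 had 13 tags (6.92 to 22.2) of a window of 27 under miR1137-310-5p. The same miRNA was listed 2 nt upstream, at position 36, with 5 tags (1.62 to 11.7) of a window of 17. Position 45 had 4 tags (1.09 to 10.2) of a window of 9, with the same value under each of its 3 miRNAs, and 4 tags was the lowest abundance of any row in the table.

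The positions were not compared by these counts, since position 40 was the value that chose the locus and since the rows did not add up to 1 common count. Positions 38 and 40 are 2 nt apart and had 40 tags between them, whereas the window at position 38 held 27. In the same way positions 36 and 38 had 18 tags between them, and the window at position 36 held 17. The sources used here do not say in which libraries each row was counted, so a difference in abundance between positions may be a difference in the libraries or depth behind them, and this was not tested.

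At each of the 4 sites less than 50% of the window lay at the listed position. The share was 49.1% at position 40 (Wilson 95% interval 36.4 to 61.9), 48.1% at position 38 (30.7 to 66.0), 44.4% at position 45 (18.9 to 73.3) and 29.4% at position 36 (13.3 to 53.1). All 4 intervals reached above 50%, so at this depth a share of over 50% could not be told from those measured. Over all 92 sites of the table, 32.6% had a share under 50% and the median share was 71.4%. Ends of this transcript were listed at several neighbouring positions, which was also so at other loci with several sites. At positions 910 to 913 of TraesCS1A01G065000 the tags were 8 of 18, 8 of 26, 6 of 21 and 12 of 22. The window at position 40, which includes the 27 tags the locus was chosen on, held 55 tags, where the next highest of any locus was 41 and the median 8.

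The authors' category, where 0 stands for the most prominent peak of a transcript, was 0 at positions 38 and 40 and 2 at positions 36 and 45. By that definition positions with 13 and 27 tags could not both be 0 in a common count, so the categories too do not fall on a single count. This was not particular to the locus. TraesCS1A01G091300 also had category 0 at positions 1567 and 1568, with 5 and 7 tags. Category 0 was given to 87.0% of all sites and category 2 to 4.35%, that is 4 sites, of which 2 were those of this locus.

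By the deposited numbering, the sites lay closer to the start of the coding sequence than any other in the table. Within 60 nt of the start there were 4 of 4 sites of the locus, where the share over all 92 sites was 7.61% (7 sites, these 4 included). The lowest position at another locus was 53, and the median over all sites was 710 in a range of 36 to 1692. The study's supplementary target list numbers the binding sites of this transcript from another origin, so the distance from the start holds for the deposited numbering only. That numbering was checked against the reading frame, which can show its frame and not its origin. Of the 167 distinct ungapped binding sites of the table, 0 held a stop codon (TAA, TAG or TGA) in the frame set by the numbering, against 30 and 66 when the frame was moved by 1 and 2 bases. The stretch of the anthranilate synthase locus itself was open in all 3 frames, with 0 stops. The protein was not analysed here.

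**Figure D2:**
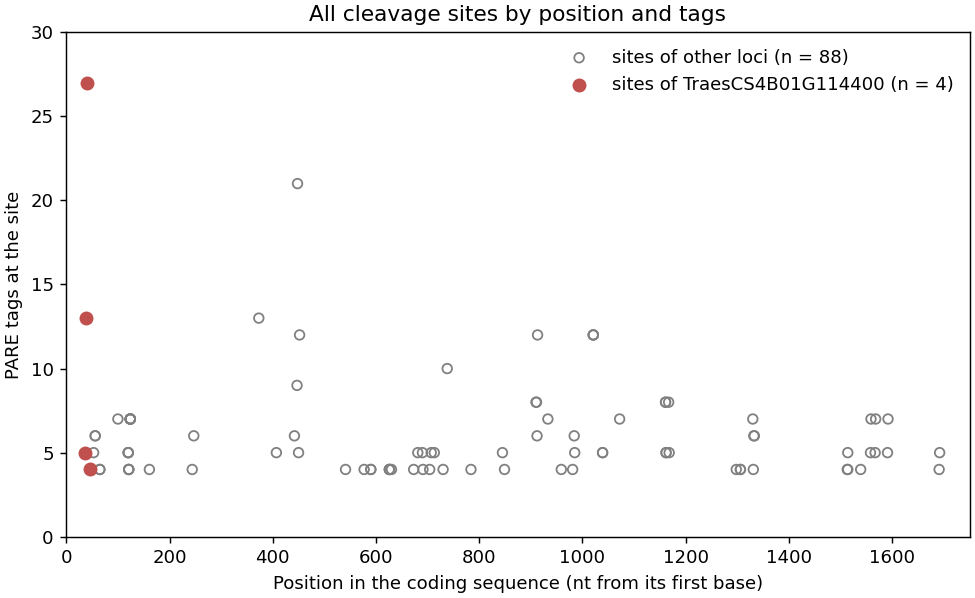
PARE tags at each of the 92 sites (vertical axis) against the position in the coding sequence in nt (horizontal axis). The 4 sites of TraesCS4B01G114400 (filled) lie at positions 36 to 45 with 4 to 27 tags, and the sites of other loci (open) start at position 53 and reach at most 21 tags.

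Pairing was complete or nearly so for every miRNA listed at the locus. The target score, a penalty in which 0 is perfect pairing, was 0 in 4 of the 6 pairs (miR1137-310-5p at both of its positions, miR1137-385-5p and miR1439-2-5p) and 0.5 in the other 2. Across the table a score of 0 was given to 2.09% of pairs, which is 5 pairs, and the fifth was at a calmodulin locus. By locus, 3.23% (2 of 62) had a lowest score of 0, and the median of the lowest scores was 3.5. A score of at most 0.5 was given to 9.21% of all pairs and to 6 of 6 here.

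Base by base, 24 of 24 bases of miR1137-310-5p, 21 of 21 of miR1439-2-5p and 20 of 20 of miR1137-385-5p formed Watson-Crick pairs with the stretch. miR1137-491-5p and miR1137-121-5p had 20 such pairs each and a single G:U wobble, at base 16 and base 21, with no mismatch (0). Both wobbles fell on the same base of the transcript, position 36, which is also a listed cleavage position. The wobble of miR1137-121-5p at its last base is all that sets its score apart from that of miR1439-2-5p.

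The 201 mature miRNA sequences that the study lists and that were read here were searched for any that could pair with the stretch along their whole length without a mismatch. There were 6, the 5 listed at the locus and miR1137-383-5p.

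miR1137-383-5p: tAGATGACccaactttgtact

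It could form 21 of 21 Watson-Crick pairs with positions 24 to 44, and its base 10 would lie opposite position 35. It was listed at no locus of the table (0 rows). The table holds filtered rows only, so this does not show that no tags lay there.

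The listed positions were mostly not those opposite base 10. Counted from the 5′ end of the miRNA, 1 of 6 pairs had the position opposite base 10 (miR1137-310-5p at position 38), where 42.3% of all 239 pairs did. The shares over all pairs did not allow for gaps in the pairing and are approximate. The other 5 pairs had it opposite base 12, where 24.7% of all pairs did, and 0 had it opposite base 11, where 28.9% of all pairs did. Base 10 lay opposite position 42 for miR1137-491-5p and opposite position 47 for the 3 miRNAs with the shared seed, and neither position was listed. In each case the listed position was 2 nt upstream, as was position 36 for miR1137-310-5p. Since 3 of these 5 pairs are near copies of 1 sequence at 1 position, the 5 pairs amount to 3 positions. In the 12 pairs of miR1137 at other loci, the position lay opposite base 10 in 2, base 11 in 8 and base 12 in 2. Of the 8, 6 were the same 2 miRNAs at 3 protease copies with identical values, and with those copies counted once 4 of 8 pairs lay opposite base 11.

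**Figure D3:**
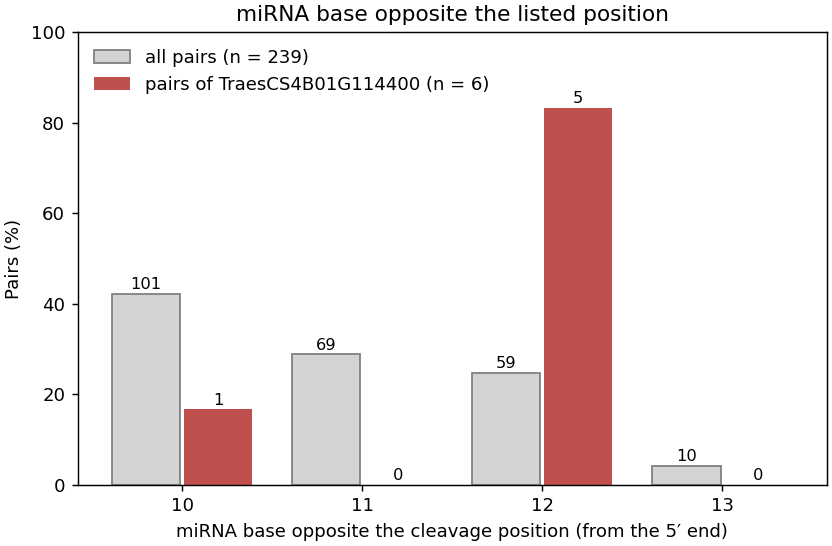
Share of pairs in % (vertical axis) by the miRNA base opposite the listed position, counted from the 5′ end (horizontal axis), for all 239 pairs (grey) and the 6 pairs of TraesCS4B01G114400 (red), with the number of pairs above each bar. At this locus 5 pairs were opposite base 12 and 1 opposite base 10.

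No listed position was within reach of all the miRNAs. Position 40 lay opposite base 8 of miR1137-310-5p and base 17 of the miRNAs with the shared seed, and position 45 lay opposite base 7 of miR1137-491-5p and base 3 of miR1137-310-5p. Bases counted in this way anywhere in the table, without allowing for gaps, ran from 10 to 13. The listed positions were 36 and 38 for miR1137-310-5p, 40 for miR1137-491-5p and 45 for the rest. The binding sites of these 3 seed groups end at positions 47, 51 and 56. Which miRNA a position was listed under thus follows from these offsets and does not show that each group has its own cut.

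The stretch was found, nearly base for base, in the precursor hairpins of these miRNA families. The hairpins of miR1439-2-5p and miR1137-310-5p are shown, as the study lists them, because they hold the stretch in the arm opposite the miRNA. Capitals mark the bases equal to the target stretch.

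miR1439-2-5p precursor: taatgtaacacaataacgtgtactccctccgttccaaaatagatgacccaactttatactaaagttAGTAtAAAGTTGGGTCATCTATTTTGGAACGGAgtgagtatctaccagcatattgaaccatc

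miR1137-310-5p precursor: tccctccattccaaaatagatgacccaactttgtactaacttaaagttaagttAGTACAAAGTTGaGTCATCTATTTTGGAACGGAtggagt

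Each of these hairpins differed from the stretch at 1 of 33 bases, opposite coding position 28 for miR1439-2-5p and position 36 for miR1137-310-5p. The precursors were read as 200 entries, 1 for each miRNA, so a hairpin with several miRNAs is entered again for each. The 19 entries of miR1137 (18) and miR1439 (1) matched the stretch on the same strand with 1 mismatch (15 precursors) or 2 (4 precursors). None (0) was identical to it. On the opposite strand 3 of them, those of miR1137-171-5p, miR1137-332-5p and miR1137-443-5p, were identical to the stretch and the others had up to 4 mismatches. Taking the better strand, the 19 had at most 2 mismatches, and the 181 precursor entries of other families had from 10 to 20. The stretch was joined from sites picked for pairing with miRNAs of miR1137 and miR1439. A close match to the hairpins of these families was therefore largely fixed in advance and is given as a description. On the same strand, the longest unbroken run that another family shared with the stretch was 19 bases, in the precursor of miR1133-72-3p. Runs on the opposite strand of the precursors were not measured.

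Position 36 was the base at which most of these precursors differed from the transcript. On the same strand 18 of the 19 precursors had another base there, the exception being miR1439-2-5p. Position 50 differed in 3, and positions 28 and 49 in 1 each.

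**Figure D4:**
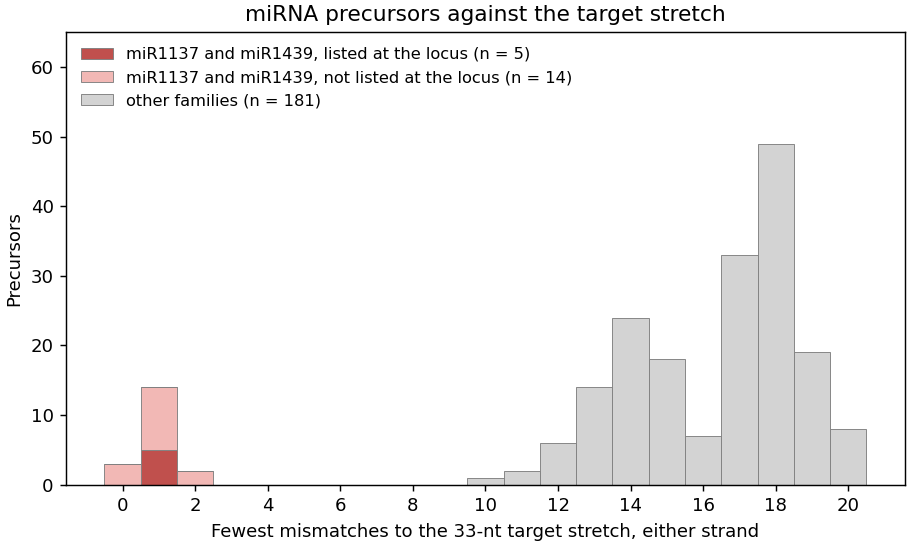
Number of precursors (vertical axis) by the fewest mismatches to the 33-nt target stretch on either strand (horizontal axis), for miR1137 and miR1439 precursors whose miRNA was listed at the locus (red, n = 5) or not (pink, n = 14) and for other families (grey, n = 181). The 19 precursors of miR1137 and miR1439 had 0 to 2 mismatches and all others had 10 or more. The stretch was joined from sites picked for pairing with these families, and a hairpin is counted again for each of its miRNAs.

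Tags starting in the stretch carry sequence that also occurs elsewhere. A tag of 20 bases starting at position 36 would lie wholly inside the stretch, and its sequence was found in 6 of the 200 precursors on either strand. These counts take both strands together. On the same strand 18 of the 19 entries of miR1137 and miR1439 had another base at position 36. The 19 bases from position 38 to the end of the stretch were in 17 precursor entries on either strand, as were the 17 bases from position 40. The table does not give how many other places a tag matched. Whether tags from other copies of this sequence were counted at the locus was not tested. None (0) of the binding sites of the other 61 loci in the table held these bases on either strand. Only these short sites were searched and not the coding sequences to which tags map, so this says nothing of copies elsewhere.

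Of the 5 miRNAs, 0 were listed at another locus. Of all 73 miRNAs, 28.8% were listed at a single locus. By the rule of shared miRNA names, no other locus (0) was like it. It was 1 of 7 loci (11.3%) under more than 1 family, and 1 of 4 loci (6.45%) with 4 or more sites. Of the 18 miR1137 members that the study lists, 10 were in the table, 4 of them at this locus, and the only miR1439 member was listed here and nowhere else.

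The 6 other loci under miR1137 had sites at higher positions of the deposited numbering and mostly weaker pairing, and their lower tag counts follow from how the locus was chosen. Copies of a carboxyl-terminal-processing protease (TraesCS7A01G228300, TraesCS7B01G191400 and TraesCS7D01G226300) had 12 of 27 tags at position 1021 and scores of 4 and 5. A DETOXIFICATION protein, TraesCS6B01G185100, of a family of efflux transporters, had 5 of 7 tags at position 1692 and 4 of 13 at position 1691, at a score of 0.5. Beta-fructofuranosidase TraesCS5B01G557400, an enzyme that splits sucrose, had 4 of 4 tags at position 1539 at a score of 3. Glucan synthase-like 10 (TraesCS5B01G215200) had 5 of 5 tags at position 690 at a score of 5. Outside the family, the loci next in abundance were the receptor-like kinase with 21 of 30 tags at position 448 and an importin beta-1 subunit that carries cargo into the nucleus (TraesCS1A01G065000), with 12 of 22 at position 913. No test was made between loci, as each value stands without replicates.

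The annotations were searched for 13 terms of the shikimate and tryptophan pathways, among them chorismate, shikimate, tryptophan and prephenate. This locus was the only match (1 locus), with 0 others, so no further enzyme of the pathway and no second anthranilate synthase locus was listed in the rows used here. The study reports more target loci than these rows hold, so the absence is not one of the study. For anthranilate synthase the study names members of miR1136 besides miR1137 and miR1439. Its discussion names miR1137-229-3p, which was listed here only at the beta-fructofuranosidase locus.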

How the data were processed

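Per the study's methods, single-end degradome reads from the 24 libraries were trimmed, kept at the expected tag length and collapsed, and mapped with sPARTA to wheat coding sequences (IWGSC RefSeq v1.0), with targets predicted by its miRferno module. The authors deposited 1 table for the whole series. It holds the PARE tag count at each position, the window signal (tags within a window named as 10 nt), the deposited fraction of the window at the position, the authors' target score and category score, and a deposited p-value per site. Rows were filtered by the authors on that p-value (threshold 0.05) and on tags, stated as more than 4, although rows at 4 are present. How tag counts were scaled or pooled over libraries is not given in the sources used here.

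The miRNA sequence, which the table writes 3′ to 5′, was reversed, and 5 of 5 then equalled the study's list of mature miRNAs. The miRNA base opposite a position was counted with the miRNA 5′ end on the last base of the binding site. Gaps in a pairing were not allowed for, so the base can be miscounted for gapped pairs of other loci. Precursors were compared without gaps. Intervals (scipy 1.17.1) are exact Poisson for counts and Wilson for shares, at 95%, and cover counting error only. Sequence functions were tested on simulated data. Of the reference gene names, 0 matched the locus, and no genome coordinates were used.

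The locus, the lists and the naming rule were chosen with earlier results of these data known. The rule named the locus, up to 5 loci sharing most of its miRNAs, the next 3 loci by abundance (a tie between copies kept all) and loci whose binding site overlapped its own by 15 or more bases. The remaining loci under miR1137 were added after their values were seen.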

Additional observations from a re-analysis of the deposited data

How the results depend on the processing

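No paired analysis was possible because values are given once for the whole series and not by replicate, and for the same reason no replicate could be left out. At an abundance over 4, position 45 and its 3 miRNAs were lost, which left 3 sites and 2 miRNAs in place of 4 and 5. At a p-value under 0.01 all 4 sites and 5 miRNAs remained. The locus ranks 1 by tags at a position because it was chosen so, and its window, which also ranks 1, holds those tags. It ranked 2 when tags were summed over positions (49 tags against 66 at the locus ranked first), a sum that rests on rows that do not add up. Counted by distinct mature sequence there were still 5 miRNAs. Joining positions within 1 nt, taking the lowest abundance per site, using the largest window of the transcript and counting the opposite base from the other end of the site could not change a value here and say nothing of stability, since no listed positions of the locus were 1 nt apart, each site had a single abundance, the largest window was that of position 40 and the sites had no gaps. Counts of 4 and 5 tags limit positions 36 and 45 most.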

Other observations

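The sequence at the anthranilate synthase locus also occurred, on the opposite strand, at binding sites of miR1137 in other coding sequences, a pattern noticed after the data were seen. These sites pair with miRNAs from the 3p arm of the hairpin, where those at the anthranilate synthase locus pair with the 5p arm. The arms of a hairpin are largely complementary, so sites picked for pairing with each arm would resemble opposite strands. A close match was therefore largely fixed in advance and is given as a description. The sites are shown with the bases equal to the opposite strand of the target stretch in capitals.

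TraesCS5B01G557400, positions 1529 to 1549: TCaGTTCCAAAATAGATGACC

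TraesCS6B01G185100, positions 1683 to 1703: ccTCCGTTCtAAAATAGATGA

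The beta-fructofuranosidase site TraesCS5B01G557400 on 5B overlapped the stretch by 21 bases with 1 mismatch and shared an unbroken run of 18. The DETOXIFICATION site TraesCS6B01G185100 on 6B overlapped it by 19 bases with 1 mismatch. The next locus on that strand, glucan synthase-like 10, had 5 mismatches over 19 bases. On the same strand no other locus (0) shared a run of 15 bases or more, and the longest was 7. Both sites lie far into their coding sequences and had 4 to 5 tags. TraesCS6B01G185100 was listed at neighbouring positions, 1691 and 1692. Its window of 7 at position 1692 could not hold the tags of both (4 and 5), as at the anthranilate synthase locus. This was not particular to loci with the shared sequence. TraesCS1A01G091300 (transport inhibitor response 1) had 5 tags at position 1567 and 7 at 1568, with windows of 6 and 8.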
